A study of Mus musculus with 9 samples.

Results

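Complex I (NADH:ubiquinone oxidoreductase) is described here through the messenger RNAs of its nuclear-encoded subunits and of factors that assemble it. The members were the rows of the count table whose gene symbol begins with Nduf, together with Acad9, Ecsit and Nubpl, and a row was kept when it held at least 90 counts summed over the 9 libraries. Of 45 candidate rows, 44 were kept, out of 29915 rows in all, and each of the 44 passed the expression filter that left 13345 genes for testing. They are 36 subunits, Ndufa4, which was later moved to another complex, and 7 assembly factors (Ndufaf1, Ndufaf2, Ndufaf3, Ndufaf4, Acad9, Ecsit and Nubpl). Ndufa4l2 missed the minimum, with 16 counts, and no row for Ndufb1 was found.

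The study sequenced poly(A)-selected RNA, by a strand-specific protocol, from untreated mouse embryonic fibroblasts (MEFs), which are connective tissue cells cultured from embryos. A mutator line (5 libraries) was compared with a wild-type (WT) line (4 libraries), each harvested 48 h after seeding. In mouse genetics the word mutator usually denotes a Polg allele whose mitochondrial DNA polymerase cannot proofread, but the labels give neither the allele nor the age or strain of the embryos. There was 1 representative line per genotype and its wells were technical replicates, so p-values measure the spread between wells, and genotype cannot be told apart from any other difference between the lines. The series was made to look at proteasome subunits, and complex I is a comparison that its table allows.

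Complex I takes electrons from NADH, passes them along a chain of iron-sulphur clusters to ubiquinone, and pumps protons across the inner mitochondrial membrane. Its matrix arm holds an N module, where NADH is oxidised at a flavin, and a Q module, where ubiquinone is reduced. Its membrane arm, which pumps, has a proximal part next to the Q module and a distal part. The central membrane subunits are encoded by mitochondrial DNA, where mutator mice accumulate mutations, whereas every member described here is encoded in the nucleus. The complex I subunits among the members are joined to the mitochondrially encoded ones by dedicated assembly factors.

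Total counts per library were 32045662 to 49511365 in mutator and 26341230 to 36238653 in WT, and no pair of libraries of a group agreed within sampling noise. Levels are in CPM, edgeR's count per library size, with library sizes scaled by the trimmed mean of M-values (TMM). The test was edgeR's quasi-likelihood test over the 13345 genes, with a threshold of 0.05 on the Benjamini-Hochberg adjusted p, and every log2 fold change is mutator over WT with its standard error (SE). The lines differed widely: 79.9% of all tested genes passed, 40.7% of all tested genes as higher and 39.2% as lower in mutator. Of 11 fibroblast markers, 8 were tested, 6 rose and 1 fell, and the summed level of the list was 16238 to 17309 CPM in mutator against 8811 to 9226 CPM in WT. Thy1, Lum and Dcn were at or near 0 in both lines, and none of these was tested. Thy1 was at most 0.159 CPM in mutator and 0 in WT, and Lum was 0 in mutator and at most 0.028 CPM in WT. The summed epithelial markers were at 1.18 to 2.03 CPM in mutator and 100.4 to 109.3 CPM in WT, nearly all of it Krt18, and the summed neural markers at 11.5 to 13.2 CPM in mutator and 43.1 to 45.1 CPM in WT, from Mtap2. Haematopoietic markers summed to at most 4.54 CPM in mutator and 2.66 CPM in WT, endothelial markers to at most 0.531 CPM in mutator and 1.20 CPM in WT, and pluripotent and skeletal muscle markers were at or near 0 in every library. The part of these differences between the lines in the results below was not tested, and with whole-well RNA fewer cells expressing a gene and less RNA per cell cannot be told apart.

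Promoters of 3 subunits are shown first because they carry, or lack, the motifs of factors known to drive respiratory chain genes, and because their messengers were among the lower ones in mutator. The sequences are from RefSeq (GRCm38.p6), 5' to 3' on the minus strand, and run up to the base before the annotated gene. In Ndufs5 (chr4:123718203-123718436) the capitals mark a match to the NRF1 motif (GCGCA, any base, GCGC), 98 bases before the RefSeq start. In Ndufb6 (chr4:40279422-40279671) they mark the ETS motif CCGGAAG, bound by GABPA, on the opposite strand and 232 bases before the start. Ndufv2 (chr17:66101560-66101809), the subunit with the largest change, has none of the motifs searched in the stretch printed.
Ndufs5: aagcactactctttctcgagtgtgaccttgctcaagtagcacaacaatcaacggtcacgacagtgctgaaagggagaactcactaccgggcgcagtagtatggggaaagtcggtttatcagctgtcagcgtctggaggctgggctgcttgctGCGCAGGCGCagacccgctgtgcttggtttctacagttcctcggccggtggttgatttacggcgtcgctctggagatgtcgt
Ndufb6: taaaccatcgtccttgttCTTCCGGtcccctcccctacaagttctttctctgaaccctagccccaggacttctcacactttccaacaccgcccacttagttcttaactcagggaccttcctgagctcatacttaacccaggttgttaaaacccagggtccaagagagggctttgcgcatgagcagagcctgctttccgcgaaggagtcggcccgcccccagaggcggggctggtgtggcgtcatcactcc
Ndufv2: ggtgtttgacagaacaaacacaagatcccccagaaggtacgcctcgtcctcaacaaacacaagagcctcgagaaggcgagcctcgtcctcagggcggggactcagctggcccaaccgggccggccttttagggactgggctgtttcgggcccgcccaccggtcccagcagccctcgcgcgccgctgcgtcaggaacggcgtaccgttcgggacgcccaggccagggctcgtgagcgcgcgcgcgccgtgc
Over the whole windows of 250 bases before to 50 bases after each start, on either strand, the NRF1 motif was in 9 of 41 member windows (22.0%), against 4.60% of all 32851 windows. The ETS motif was in 6 member windows (14.6%, against 8.86% of all windows), and the YY1 motif AAGATGGC was in 7 (17.1%, against 2.75% of all windows). These windows cover 39 members, and Acad9, Ndufs1, Ndufb9 and Ndufa2 are among those without a window used here. Of 8 members with the NRF1 motif, 2 rose, 4 fell and 2 did not pass, and of 6 with the ETS motif, 4 rose and 2 fell. Of 7 with the YY1 motif, 3 fell and 4 did not pass. Over all tested genes 79.9% passed, 40.7% higher and 39.2% lower, and with so few members per motif nothing is read from these counts.

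Subunit messengers differed from each other in direction, and their log2 fold changes ran from -0.77 (Ndufv2) to 0.42 (Ndufs3). Of 36 subunits, 18 fell, 8 rose and 10 did not pass the threshold. The share called was 72.2%, below the 79.9% over all tested genes. The median log2 fold change of the subunits was -0.07, against 0.01 over all tested genes, and their median absolute change was 0.19, against 0.35 over all tested genes. No member changed 2-fold or more, whereas 17.8% of tested genes passed with such a change. The libraries of the 2 lines did not overlap for 21 of the 36 subunits, against 71.9% of all tested genes. Summed over the 36 subunits, the level was 2160, 2157, 2173, 2270 and 2216 CPM in mutator, against 2444, 2439, 2400.0 and 2501 CPM in WT. All mutator sums lay below all WT sums, and the mean was 10.3% lower in mutator (2195 ± 48.0 CPM, SD, n = 5, against 2446 ± 41.7 CPM in WT, SD, n = 4). The 4 structural modules gave like counts: 5 lower and 3 higher of 10 in the N module, 3 lower and 1 higher of 6 in the Q module, 5 lower and 2 higher of 9 in the proximal arm, and 5 lower and 2 higher of 11 in the distal arm. Their summed means were lower in mutator than in WT by 10.9% for the N module, 14.9% for the Q module, 6.82% for the proximal arm and 7.77% for the distal arm. These sums, like that of all 36 subunits, weigh abundant messengers most and include a member that is not reported here. They do not describe a typical subunit of a module. In the same order, the median log2 fold changes were -0.05, -0.07, -0.11 and -0.06. Differences between modules were not tested.

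**Figure D1:**
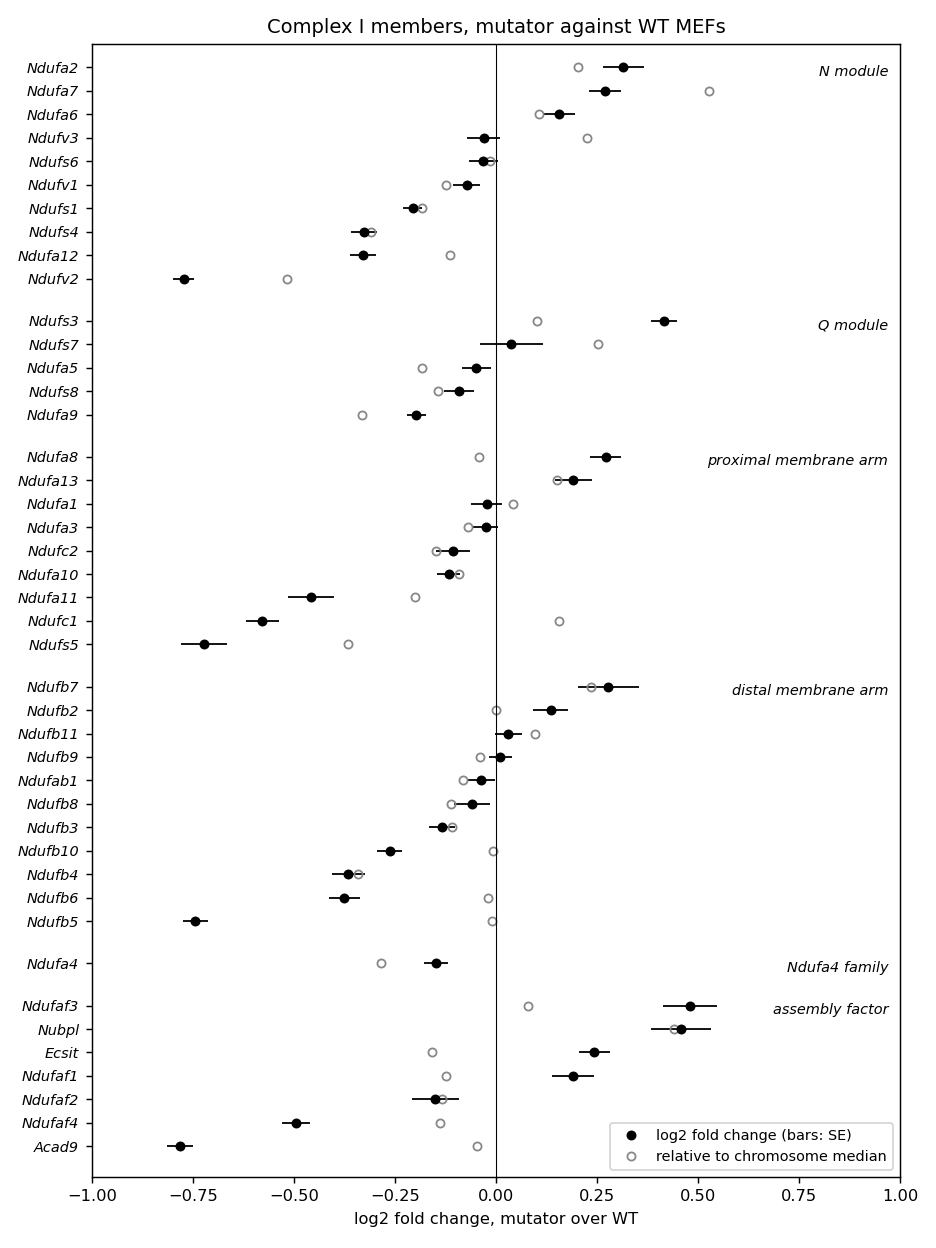
Log2 fold change (mutator over WT, horizontal axis) of 43 members, one row each, grouped by module. Filled points are the fitted values with SE bars and open points the values relative to the median of the chromosome; filled points span -0.78 (Acad9) to 0.48 (Ndufaf3), and the open points of Acad9 and Ndufb5 lie at -0.05 and -0.01.

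In the N module, the flavoprotein pair separated. Ndufv2 (chr17:66078638-66101559, minus strand of GRCm38, the assembly also called mm10) encodes a subunit with an iron-sulphur cluster next to the flavin. It had 71.4, 69.2, 70.4, 70.0 and 70.4 CPM in mutator, against 122, 123, 115 and 119.8 CPM in WT. The mutator libraries lay close together and far below every WT library. Ndufv2 was 1.71-fold lower in mutator (log2 fold change -0.77 ± 0.026, SE, edgeR adjusted p = 6.26e-15). Its partner Ndufv1, which binds NADH and the flavin, had 108, 111, 108, 118 and 108 CPM in mutator and 112, 116, 115 and 123 CPM in WT. The groups overlapped, and Ndufv1 fell by 0.07 on the log2 scale (SE 0.032, edgeR adjusted p = 0.0468), a call that was lost when WT replicate 2 or 4 or mutator replicate 1, 2, 3 or 5 was left out (adjusted p of 0.0512 to 0.152). The ratio of Ndufv2 to Ndufv1, in CPM per kb of exon, was 0.651, 0.614, 0.647, 0.586 and 0.647 in mutator, against 1.08, 1.05, 0.991 and 0.965 in WT. This pair was picked after its values were seen. Ndufs1, the large subunit that carries further clusters towards the Q module, had 142, 139.9, 137, 136 and 135 CPM in mutator and 158, 163, 155 and 161 CPM in WT, with no overlap. It fell by 0.21 on the log2 scale (SE 0.024, edgeR adjusted p = 3.32e-07).

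**Figure D2:**
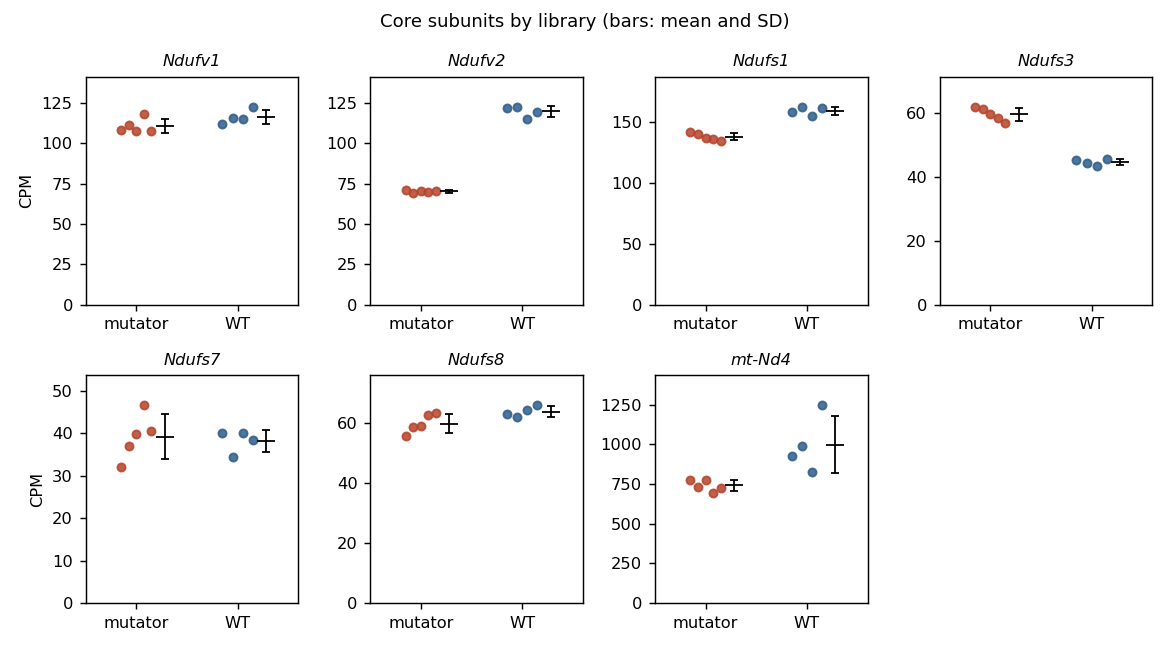
Level in CPM (vertical axes, from 0) of core nuclear subunits and of mt-Nd4 in each mutator library (red, left) and each WT library (blue, right), with the mean and SD beside the points. Ndufv2 lies lower and Ndufs3 higher in mutator without overlap, while Ndufs7 spans 32.0 to 46.7 CPM in mutator around the WT values.

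The accessory subunits of the N module moved both ways. Ndufa12, a paralog of the assembly factor Ndufaf2, takes that factor's place late in assembly. It had 57.2, 59.8, 64.2, 59.7 and 59.0 CPM in mutator, against 77.1, 75.4, 74.9 and 73.9 CPM in WT, without overlap. Ndufa12 was 1.26-fold lower (log2 fold change -0.33 ± 0.033, SE, edgeR adjusted p = 3.85e-08), and a near-identical pseudogene (Gm15920) makes its value uncertain. Ndufs4, whose loss in mice causes an encephalopathy like human Leigh syndrome, had 61.0, 58.2, 61.2, 58.6 and 61.4 CPM in mutator, against 77.6, 77.1, 70.7 and 75.7 CPM in WT. These did not overlap either, and the log2 fold change was -0.33 ± 0.032 (SE, edgeR adjusted p = 3.81e-08). On the other side, Ndufa2, a thioredoxin-like subunit, was at 67.4 ± 6.07 CPM in mutator (SD, n = 5) and 54.2 ± 1.30 CPM in WT (SD, n = 4), and its log2 fold change was 0.32 ± 0.052 (SE). Ndufa7 rose by 0.27 and Ndufa6, a LYR-motif subunit, by 0.16 on the same scale. Ndufs6, which binds zinc, and Ndufv3 did not pass, at -0.03 each.

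In the Q module, Ndufs3 (chr2:90894634-90904827, minus strand), a core subunit without an iron-sulphur cluster, had 61.9, 61.1, 59.5, 58.3 and 56.8 CPM in mutator, against 45.2, 44.4, 43.5 and 45.6 CPM in WT. It was higher in every mutator library than in any WT library, 1.33-fold on average, and had the largest rise of any subunit (log2 fold change 0.42 ± 0.032, SE, edgeR adjusted p = 1.37e-09). Relative to the median of chromosome 2 the rise was 0.10 (adjusted p = 0.00886, edgeR). A processed pseudogene, Gm12251, matches Ndufs3 at 98.6% identity over 792 bases, and reads may be split between them.

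Smaller differences were seen in further Q module messengers. Ndufa9, an accessory subunit that binds a nucleotide at the joint of the arms, had 103, 102, 99.5, 101 and 101 CPM in mutator, against 115, 118, 115 and 116 CPM in WT. The lines did not overlap, and the log2 fold change was -0.20 ± 0.023 (SE, edgeR adjusted p = 3.24e-07). Ndufs8, a ferredoxin-like core subunit, had 55.6, 58.6, 59.0, 62.8 and 63.3 CPM in mutator, against 62.9, 61.9, 64.3 and 66.0 CPM in WT, with overlapping groups. It passed (log2 fold change -0.09 ± 0.038, SE, edgeR adjusted p = 0.0335), and the call was lost when WT replicate 3 or 4 or mutator replicate 1, 2 or 3 was left out (adjusted p of 0.0707 to 0.105). Ndufs7, which holds the last cluster before ubiquinone, had 32.0, 37.0, 40.0, 46.7 and 40.5 CPM in mutator and 40.2, 34.5, 40.0 and 38.3 CPM in WT, so that mutator replicate 1 was the lowest and mutator replicate 4 the highest of all 9. It did not pass (log2 fold change 0.04 ± 0.078, SE, edgeR adjusted p = 0.663), nor did Ndufa5 (-0.05).

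The largest changes of the proximal membrane arm were falls. Ndufs5, a disulphide-bridged subunit on the intermembrane side, had 27.0, 30.5, 23.9, 29.9 and 27.5 CPM in mutator, against 43.7, 46.0, 44.5 and 49.5 CPM in WT. All mutator libraries were well below WT, though they spread more than those of most members. It was 1.65-fold lower (log2 fold change -0.72 ± 0.057, SE, edgeR adjusted p = 1.59e-09), and BC002163, a pseudogene with 99.4% identity over 319 bases, makes the value uncertain. Ndufc1, a small membrane subunit, had 25.2, 24.3, 25.9, 26.0 and 26.6 CPM in mutator, against 39.5, 40.2, 37.1 and 35.7 CPM in WT. The lines were apart (log2 fold change -0.58 ± 0.040, SE, edgeR adjusted p = 2.77e-10). Ndufa11, a membrane subunit that touches complex III in supercomplexes, had 29.0, 33.5, 31.9, 38.1 and 34.6 CPM in mutator, against 46.2, 44.7, 47.9 and 45.0 CPM in WT. Mutator replicate 1 was the lowest and replicate 4 the highest of the mutator libraries, and both lay below WT (log2 fold change -0.46 ± 0.057, SE, edgeR adjusted p = 7.48e-07). Ndufa10 fell by 0.12 and Ndufc2 by 0.11, and the libraries overlapped for Ndufc2, whose call was lost without WT replicate 1 (-0.067) or mutator replicate 1 or 2 (adjusted p of 0.0565 to 0.152). Ndufa8, on the intermembrane side, and Ndufa13, also known as GRIM-19, rose by 0.27 and 0.19. Ndufa3 (-0.03) and the X-linked Ndufa1 (-0.02) did not pass.

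The distal membrane arm held Ndufb9, the subunit with the smallest change, as well as Ndufb5, one of those that changed most. Ndufb5, a single-pass membrane subunit, had 39.2, 39.1, 39.1, 38.4 and 38.3 CPM in mutator, against 65.8, 65.3, 61.6 and 67.5 CPM in WT. The mutator libraries were nearly equal and below all WT libraries, 1.68-fold on average (log2 fold change -0.74 ± 0.031, SE, edgeR adjusted p = 1.34e-13). Ndufb6, also in the membrane, had 32.6, 33.6, 36.1, 36.2 and 36.5 CPM in mutator, against 45.8, 46.9, 44.2 and 44.5 CPM in WT, again without overlap. It was 1.30-fold lower (log2 fold change -0.38 ± 0.038, SE, edgeR adjusted p = 5.26e-08). Ndufb4 had 27.4, 26.0, 28.5, 27.9 and 26.8 CPM in mutator, against 35.4, 36.2, 32.5 and 36.6 CPM in WT. Its lines did not overlap and its log2 fold change was -0.37 ± 0.040 (SE, edgeR adjusted p = 1.57e-07), and its reads may be split with the pseudogene Ndufb4c, which is identical over 390.0 bases. Ndufb10 and Ndufb3 fell by 0.26 and 0.13, while Ndufb7 and Ndufb2 rose by 0.28 and 0.13, and Ndufb2 lost its call without WT replicate 3 (0.090, adjusted p = 0.0619). For Ndufb7 (SE 0.076) the libraries overlapped, with mutator replicate 1 at 43.8 CPM and WT replicate 3 at 46.1 CPM. Ndufb8 (-0.06), the mitochondrial acyl carrier protein Ndufab1 (-0.04), Ndufb9 (0.01) and Ndufb11 (0.03) did not pass. Relative to its chromosome's median, Ndufb11 passed as higher (0.10, edgeR adjusted p = 0.0173). On that scale Ndufb8 (-0.11) and Ndufab1 (-0.08) passed as lower (edgeR adjusted p = 0.0303 and 0.0414), and Ndufb9 did not pass.

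Core subunits, which are conserved from bacteria, and the supernumerary ones of animals can be set side by side. Of the 7 core subunits, 5 fell and 1 rose, with a median log2 fold change of -0.09. Of the 29 supernumerary subunits, 13 fell and 7 rose, with a median of -0.05. Among all tested genes 79.9% passed, 39.2% as lower and 40.7% as higher, with a median of 0.01. The difference between core and supernumerary subunits was not tested. Counting only the 18 subunits with no near-identical copy elsewhere and no exon shared with another gene, 10 fell and 4 rose (median -0.08). The 8 with a copy are Ndufa12, Ndufab1, Ndufb3, Ndufb4, Ndufb11, Ndufs3, Ndufs5 and Ndufs6. Exons of 17 members overlap another gene, among them Ndufs3 (Kbtbd4), Ndufb5 (Mrpl47), Ndufb6 (Smim27), Ndufs1 (Ino80dos), Ecsit (Gm16845) and Acad9 (Gm43079). Where the other gene is on the opposite strand, reads cannot be told apart because the strand setting of the counting is unknown. For Acad9, Ndufb2, Ndufb8 and Ndufb9 a gene overlaps on the same strand, where no strand setting would separate the reads.

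Ndufa4 was once listed as a complex I subunit and is now placed in complex IV. It had 138, 139, 129, 128 and 132 CPM in mutator, against 144, 149.8, 144 and 153 CPM in WT. The lines did not overlap, and it fell by 0.15 on the log2 scale (SE 0.030, edgeR adjusted p = 0.000182). Its hypoxia-induced paralog Ndufa4l2 was barely detected, with 2, 1, 3, 2 and 4 counts in mutator and 2, 0, 1 and 1 counts in WT, and was not tested.

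The 7 assembly factors all passed, 4 higher and 3 lower in mutator, where 79.9% of all tested genes passed, 40.7% higher and 39.2% lower, so that for 7 genes the count lies near that share. Their median absolute log2 fold change was 0.46, beside 0.19 for the subunits and 0.35 for all tested genes. Relative to the median log2 fold change of each gene's chromosome, it was 0.13, beside 0.13 for the subunits and 0.29 for all tested genes, and the difference between factors and subunits was not tested. Their summed level was 156, 151, 153, 155 and 149.6 CPM in mutator, against 183, 186, 178 and 187 CPM in WT. Those sums did not overlap, and the mean was 16.6% lower in mutator although the median log2 fold change of the 7 was 0.19. Acad9 and Ndufaf4 took the largest shares of the WT sum, and both fell.

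Within the complex that builds the proximal membrane arm, the partners diverged before chromosome medians were removed. Relative to those medians, Acad9 was at -0.05, Ecsit at -0.16 and Ndufaf1 at -0.12, while Tmem126b was at -0.74. Acad9 (chr3:36065979-36092853, plus strand), a relative of acyl-CoA dehydrogenases and the flavoprotein of this complex, had 43.1, 42.0, 41.2, 43.3 and 41.0 CPM in mutator, against 70.7, 73.9, 69.7 and 75.7 CPM in WT. All mutator libraries were far below all WT libraries. Acad9 had the largest change of all 44 members, 1.72-fold lower (log2 fold change -0.78 ± 0.032, SE, edgeR adjusted p = 1.23e-13). Its partner Ecsit, known also from Toll-like receptor signalling, had 30.0, 30.7, 30.7, 33.6 and 31.9 CPM in mutator, against 26.9, 25.7, 27.2 and 26.4 CPM in WT, and was higher without overlap (log2 fold change 0.24 ± 0.039, SE, edgeR adjusted p = 1.94e-05). Ndufaf1, a chaperone in the same complex, had 24.1, 24.3, 24.3, 22.6 and 21.4 CPM in mutator, against 21.0, 20.6, 18.3 and 21.8 CPM in WT. WT replicate 4 lay above the lowest mutator library, and the log2 fold change was 0.19 ± 0.052 (SE, edgeR adjusted p = 0.00273). The per-kb ratio of Acad9 to Ecsit was 0.551 to 0.616 in mutator and 1.10 to 1.23 in WT, and this pair too was picked after its values were seen. The 11 listed other assembly factors are no members by the rule, and 10 were found and tested. Of these, 6 fell and 3 rose, where 79.9% of all tested genes passed, 39.2% as lower and 40.7% as higher. A further partner, Tmem126b, was among them. It had 7.47, 6.67, 8.11, 7.0 and 6.42 CPM in mutator, against 11.5, 11.7, 11.1 and 12.0 CPM in WT, and fell by 0.70 on the log2 scale (SE 0.065, edgeR adjusted p = 1.84e-08). The other largest change in that list was in Aifm1, a flavoprotein that helps import intermembrane-space proteins, with 81.0, 78.5, 81.3, 74.9 and 74.3 CPM in mutator and 108, 107, 104 and 107 CPM in WT (log2 fold change -0.45 ± 0.031, SE, edgeR adjusted p = 2.63e-10).

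**Figure D3:**
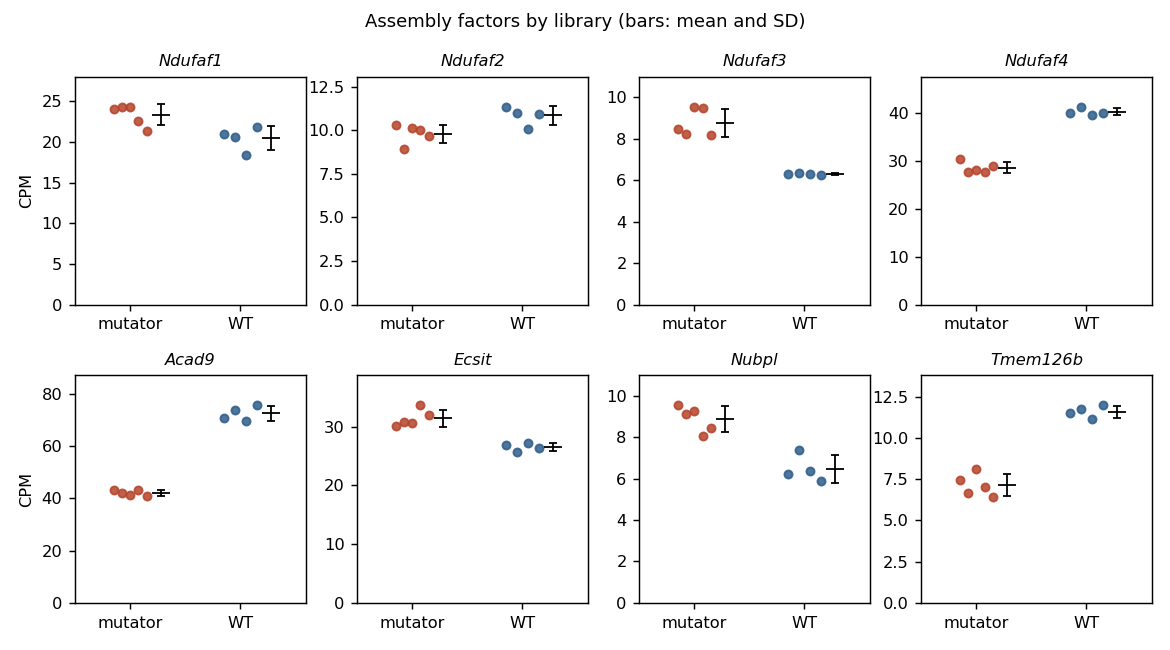
Level in CPM (vertical axes, from 0) of the 7 assembly factors and of Tmem126b in each mutator library (red, left) and each WT library (blue, right), with the mean and SD beside the points. Acad9, Ndufaf4 and Tmem126b lie lower in mutator, and Ecsit, Nubpl and Ndufaf3 higher, without overlap.

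The early factors Ndufaf3 and Ndufaf4, which bind each other and the nascent Q module, also went opposite ways before chromosome medians were removed. Relative to those of chromosomes 9 and 4, Ndufaf3 was at 0.08 and did not pass (edgeR adjusted p = 0.287), and Ndufaf4 was at -0.14. Ndufaf4 had 30.5, 27.8, 28.1, 27.8 and 28.9 CPM in mutator, against 40.1, 41.3, 39.7 and 40.0 CPM in WT. It was lower without overlap, 1.41-fold on average (log2 fold change -0.49 ± 0.035, SE, edgeR adjusted p = 3.38e-10). Ndufaf3 had 8.44, 8.24, 9.53, 9.45 and 8.15 CPM in mutator, against 6.27, 6.35, 6.32 and 6.26 CPM in WT, where the libraries were nearly equal. It was 1.40-fold higher in mutator (log2 fold change 0.48 ± 0.067, SE, edgeR adjusted p = 3.2e-06). Nubpl, which delivers iron-sulphur clusters to complex I, was at 8.89 ± 0.619 CPM in mutator (SD, n = 5) and 6.47 ± 0.654 CPM in WT (SD, n = 4) and rose by 0.46. Ndufaf2, the late factor that Ndufa12 displaces, was at 9.80 ± 0.533 CPM in mutator and 10.9 ± 0.542 CPM in WT and fell by 0.15 (edgeR adjusted p = 0.0236). Leaving out WT replicate 1 or mutator replicate 2 ended that call (adjusted p of 0.0835 and 0.0717). The calls of Ndufaf2, Ndufv1, Ndufs8 and Ndufc2 were also lost with upper quartile scaling, with no filter and with a filter of 10 CPM (adjusted p of 0.0509 to 0.413).

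Ndufaf genes that the table lists under older names fall outside the rule and were read by RefSeq synonyms. Of these 4 rows, Ndufaf5 and Ndufaf8 rose and Ndufaf6 and Ndufaf7 fell, where 79.9% of all tested genes passed. Ndufaf5 (listed as 2310003L22Rik), which in human cells hydroxylates the Ndufs7 protein, had 21.3, 21.8, 20.3, 21.6 and 22.5 CPM in mutator, against 15.8, 15.0, 14 and 14.7 CPM in WT (log2 fold change 0.53 ± 0.046, SE, edgeR adjusted p = 6.52e-09). Ndufaf6 (2310030N02Rik) had 6.64, 6.51, 6.72, 6.76 and 6.79 CPM in mutator, against 9.58, 8.56, 8.26 and 9.01 CPM in WT, and fell by 0.41 (SE 0.059, edgeR adjusted p = 4.95e-06). Neither pair of groups overlapped.

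Of the subunits encoded in mitochondrial DNA, 1 of 7 was found in the table. mt-Nd4, a proton-pumping subunit of the distal arm, had 776, 731, 777, 696 and 728 CPM in mutator, against 926, 992, 827 and 1247 CPM in WT. WT replicate 4 was far above the other WT libraries, and the groups did not overlap. It fell by 0.43 on the log2 scale (SE 0.077, edgeR adjusted p = 5.64e-05).

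For this list and the next, the shares over all tested genes were 79.9% called, 39.2% as lower and 40.7% as higher. Of 6 genes for supercomplexes and mitochondrial proteolysis, 3 fell and 2 rose. Cox7a2l, which joins complexes III and IV, had 74.2, 73.2, 72.3, 72.7 and 73.7 CPM in mutator, against 103, 102, 106 and 103 CPM in WT, and fell by 0.50 without overlap (SE 0.025, edgeR adjusted p = 2.07e-12). Higd1a, a hypoxia-induced inner membrane protein, had 1.52, 1.29, 1.81, 1.71 and 1.36 CPM in mutator, against 0.944, 1.29, 0.837 and 1.13 CPM in WT, rose by 0.55 (SE 0.158, edgeR adjusted p = 0.00401), and had overlapping libraries. Of 12 listed regulators of respiratory chain transcription, 10 were tested, 3 rose and 5 fell, and Ppargc1a had no count in any library. Ppargc1b, a coactivator related to Ppargc1a, had 1.20, 0.908, 1.22, 1.24 and 1.11 CPM in mutator, against 0.305, 0.158, 0.266 and 0.141 CPM in WT, low levels that were nevertheless 5.10-fold apart (log2 fold change 2.35 ± 0.231, SE, edgeR adjusted p = 3.38e-08). Esrra, the nuclear receptor it activates, had 25.9, 25.4, 27.9, 33.8 and 29.7 CPM in mutator, against 15.1, 13.6, 16.0 and 14 CPM in WT, and rose by 0.97 without overlap (SE 0.078, edgeR adjusted p = 2.07e-09).

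The chromosome that carries a member had its median on the same side of 0 as that member for 32 of 44. By the definition of a median, at least as many tested genes of a chromosome lie on that side as on the other. The share over all tested genes was not counted, so nothing particular to the members is read from the 32. In these lines genes of whole chromosomes differed together, and the median log2 fold change was -0.73 for chromosome 3, -0.36 for 4, -0.26 for 17, 0.40 for 9 and 0.31 for 2. It was -0.24 for chromosome 14 and -0.21 for chromosome 10. All 6 members on chromosomes 3 and 4 fell (Acad9, Ndufb5 and Ndufc1 lie on the first, and Ndufs5, Ndufb6 and Ndufaf4 on the second). All 5 on chromosomes 2 and 9 rose (Ndufs3, Ndufa8 and Ndufaf1 on 2, and Ecsit and Ndufaf3 on 9). Among all tested genes 39.2% were called lower and 40.7% higher, and the shares called on these chromosomes alone were not counted. Over the 28 members on chromosomes other than 2, 3, 4, 9 and 17, 13 fell, 6 rose and 9 did not pass, with a median of -0.05. These 28 include Ndufa12 and Ndufs7 on chromosome 10, at -0.12 and 0.25 relative to its median. Across the 44 members Pearson's r between a member's log2 fold change and its chromosome's median was 0.76, a description over genes that share the same 9 libraries, in which members of a chromosome share its median.

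**Figure D4:**
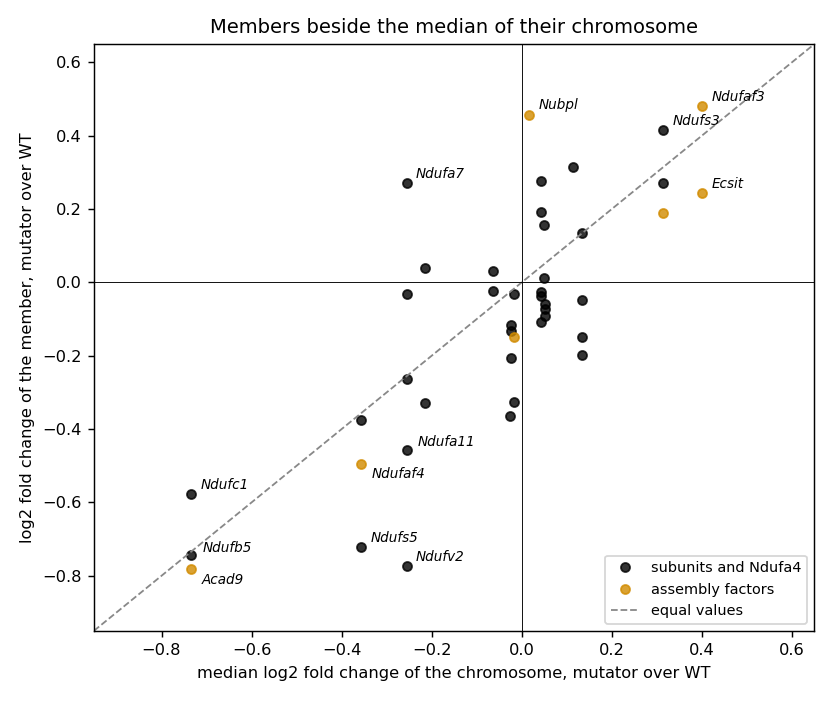
Log2 fold change of each of 43 members (vertical axis) against the median of all tested genes on its chromosome (horizontal axis), both mutator over WT; the dashed line marks equal values. Ndufb5 and Acad9 lie near the line at the chromosome 3 median of -0.73, and Ndufv2, Ndufs5, Ndufa7 and Nubpl lie away from it.

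Relative to the chromosome medians, 17 subunits fell, 10 rose and 9 did not pass, beside 77.9% called, 39% lower and 38.9% higher over all tested genes, and of the assembly factors 4 fell, 1 rose and 2 did not pass. The call was the same for 28 members, was lost for 7, was gained for 6 and turned round for 3. Those gained were Ndufs7 (0.25), Ndufv3 (0.22) and Ndufb11 (0.10) as higher, and Ndufa5 (-0.18), Ndufb8 (-0.11) and Ndufab1 (-0.08) as lower. The changes of Acad9, Ndufb5, Ndufb6 and Ndufb10 came close to 0 (-0.05, -0.01, -0.02 and -0.01) and no longer passed, nor did those of Ndufaf3 (0.08), Ndufa8 (-0.04) and Ndufb2 (-0.00012). The 3 that turned round were Ndufc1, at 0.16, Ecsit, at -0.16, and Ndufaf1, at -0.12. Acad9, at -0.05, then lay slightly above both of its partners in place of far below them.

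Several members kept larger values on that scale. Ndufv2 was at -0.52 relative to chromosome 17, Ndufs5 at -0.37, Ndufb4 at -0.34, Ndufa9 at -0.33 and Ndufs4 at -0.31, each past the threshold. Ndufa7 was the highest, at 0.53, on chromosome 17 among genes that were mostly lower, and Nubpl was at 0.44. Ndufs3 came down to 0.10, past the threshold, from 0.42 before. Tmem126b, no member, was at -0.74, close to its value of -0.70 before. Others outside the rule moved more. Ndufaf6 came to -0.05 from -0.41 and Higd1a to 0.15 from 0.55, and neither passed (edgeR adjusted p = 0.419 and 0.397). Ndufaf5 came to 0.22 from 0.53 and Cox7a2l to -0.24 from -0.50. Smaller shifts were those of Aifm1 (-0.38 from -0.45), Esrra (0.91 from 0.97) and Ppargc1b (2.24 from 2.35). In a further fit, relative to the trend over GC content and transcript length, 17 subunits fell and 10 rose, beside 79.3% called, 39.2% lower and 40.1% higher over all tested genes. There Ndufa13 (-0.016), Ndufb7 (0.15), Ndufb3 (0.066), Ndufc2 (0.046), Ndufa4 (0.063) and Ndufaf2 (0.025) no longer passed, while Ndufa1 (0.16), Ndufs6 (0.11), Ndufb11 (0.098) and Ndufa3 (0.092) now passed as higher and Ndufv3 (-0.14) as lower. Outside the rule, Esrra came to 0.64 and Ppargc1b to 2.12 in that fit. The call held in the 3 fits for 13 members as lower (among them Ndufv2, Ndufs5, Ndufs4, Ndufb4, Ndufa9, Ndufa12, Ndufa11, Ndufs1, Ndufa10, Ndufv1, Ndufs8 and Ndufaf4), for 5 as higher (Ndufa7, Ndufa2, Ndufa6, Ndufs3 and Nubpl), and Ndufb9 passed in none.

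Compared per kb of exon, the messengers of 35 subunits spanned a 23.4-fold range in mutator and a 25.5-fold range in WT. Their median level was 49.3 CPM per kb in mutator and 54.0 CPM per kb in WT. Among these, Ndufb9 led in both (141 CPM per kb in mutator and 140.1 CPM per kb in WT), and Ndufb2 was lowest in both (6.04 CPM per kb in mutator and 5.49 CPM per kb in WT). Lengths came from the GENCODE union of exons, and for Ndufb2 and Ndufab1 these are 4375 and 4387 bases, which lowers the level per kb. The order changed most for Ndufs3, at rank 14 of 35 in mutator and 27 in WT, and for Ndufv2, at rank 26 in mutator and 13 in WT.

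The wells of each line agreed closely, with a median coefficient of variation over the 36 subunits of 3.82% in mutator and 3.68% in WT. The members with the widest spread in mutator were Ndufs7, whose highest library was 1.46 times its lowest, Ndufb7 at 1.40 times, Ndufa11 at 1.32 times, Ndufs5 at 1.27 times and Ndufa2 at 1.26 times. Ndufs7, Ndufb7 and Ndufa11 have 58.0 to 59.7% GC in their longest transcript, near the top of the range over the members (39.5 to 60.4%), whereas Ndufs5 (49.0%) and Ndufa2 (51.7%) lie near its median of 50.8%. In mutator replicate 4 the deviation of a member from its group's mean followed GC content (Pearson's r = 0.69 over the 44 members and 0.49 over 12459 tested genes), and in mutator replicate 1 it ran the other way (-0.59 and -0.35). WT replicate 3 (0.59 and 0.30) and WT replicate 2 (-0.65 and -0.35) gave the same contrast. These are descriptions across genes of the same libraries. Without mutator replicates 4 and 5, 12 members were higher and 22 lower, as with all libraries.

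**Figure D5:**
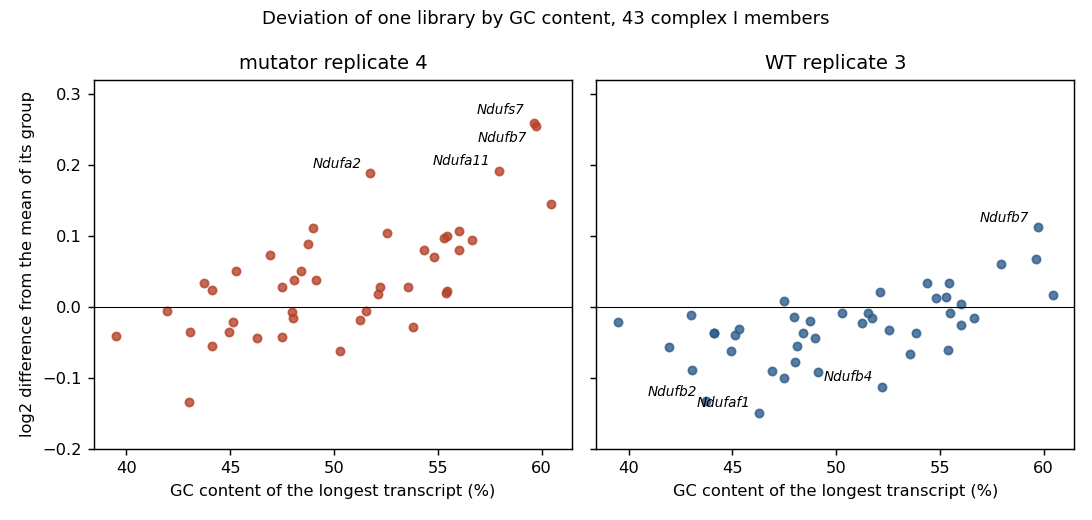
Deviation of one library from its group's mean (log2 of CPM plus 0.5, vertical axis) against the GC content of the longest transcript (percent, horizontal axis) for 43 members, in mutator replicate 4 (left) and WT replicate 3 (right). In mutator replicate 4 Ndufs7, Ndufb7, Ndufa11 and Ndufa2 lie highest.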

How the data were processed

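The authors deposited unnormalised read counts for each gene. STAR 2.4.2a, HTSeq and the build mm10 are named in the submitters' processing notes. For HTSeq, the version, annotation, strand setting and treatment of multiply mapped reads were not given in the sources read. Library columns were matched to samples by their descriptions, and 5 columns that match no sample were not used. Every row names a gene. Genes were filtered with filterByExpr, TMM-scaled and compared by quasi-likelihood in edgeR 4.0.16 under R 4.3.3, with group as sole term. Each SE is the absolute log2 change over the root of the F statistic. The test was checked on simulated counts. Chromosome-relative values subtract the median of chromosomes with at least 50 tested genes as an offset, and the GC and length trend is a loess fit (span 0.5) over the 12459 tested genes with both values. Positions, exon lengths and GC content come from GENCODE M21 (GRCm38), and near-identical copies were searched with BLAST+ 2.17.0 (at least 95% identity over 200.0 bases). DESeq2 1.42.0, other scalings and filters, left-out libraries and a replicate block were alternatives. Correlations of same-numbered libraries between the lines were -0.08 to 0.03. They showed no pairing by number, but whether same-numbered wells were handled together cannot be known from these values.

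Members and lists were chosen with earlier results of these data known. Values in every library are given for the core subunits, the 3 largest changes past the threshold per module and among assembly factors, the Ndufa4 family, members called in opposite directions before and after removal of chromosome medians, and the 2 largest changes per further list. Counts, sums and fits include 1 member that is not reported here.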

Additional observations from a re-analysis of the deposited data

Results flagged for a closer look

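In a few cases a single library stood apart from the rest of its group by Dixon's test at the 95% level. This was run over 104 groups, of which 3 were picked out, and chance alone picks out about 1 in 20 groups. Ndufa8 was at 56.8 CPM in WT replicate 2, below the nearest at 60.8 CPM. In mutator, Ndufb11 was at 69.0 CPM in replicate 4, above the nearest at 63.8 CPM, and Ndufa3 was at 48.7 CPM in replicate 5, above the nearest at 46.6 CPM. With each of these libraries left out in turn, Ndufa8, Ndufb11 and Ndufa3 kept their direction and their side of the threshold.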

How the results depend on the processing

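All 44 members kept direction and call with RLE size factors and with DESeq2. With a library left out, all genes called ranged from 10418 to 10594, subunits higher from 7 to 8 and lower from 15 to 18, assembly factors higher stayed at 4 and lower ranged from 2 to 3, and the medians ranged from -0.09 to -0.06 for subunits and 0.14 to 0.22 for assembly factors. In these fits 37 members kept direction and call. Ndufaf2, Ndufb2, Ndufc2, Ndufs8 and Ndufv1 lost theirs in some, Ndufb9 ranged from -0.013 to 0.027, and Ndufs7 ranged from -0.036 (without mutator replicate 4) to 0.11. Without mutator replicates 4 and 5, Ndufb9 was at -0.000436 and Ndufs7 at -0.071. Upper quartile scaling moved the median of all genes to 0.055 and that of the subunits to -0.022, and turned Ndufa1 (0.021), Ndufa3 (0.019), Ndufab1 (0.0060), Ndufs6 (0.013) and Ndufv3 (0.013), none of which passed, while Ndufb11 (0.075, edgeR adjusted p = 0.0476) gained a call. A minimum of 10 CPM in 4 libraries tested 42 members, without Nubpl and Ndufaf3, and gave 2 assembly factors higher and a median of -0.12, with Ndufa1 at 0.0028 and Ndufa3 at 0.000170. That scaling, that minimum and no filter each ended the calls of Ndufv1, Ndufs8, Ndufc2 and Ndufaf2. Chromosome medians removed left 1 assembly factor higher with a median of -0.12, and turned Ecsit (-0.16), Ndufaf1 (-0.12), Ndufa8 (-0.043), Ndufb9 (-0.040), Ndufb2 (-0.00012), Ndufc1 (0.16), Ndufv3 (0.22) and Ndufa1 (0.042). With the GC and length trend removed, signs turned for Ndufa1 (0.16), Ndufs6 (0.11), Ndufa3 (0.092), Ndufa5 (0.070), Ndufb3 (0.066), Ndufa4 (0.063), Ndufab1 (0.052), Ndufc2 (0.046), Ndufb8 (0.040), Ndufaf2 (0.025), Ndufa13 (-0.016) and Ndufs7 (-0.12). Apart from the tested genes that a filter removes, the cause of these shifts was not tested. The replicate block gave 12 members higher and 21 lower, with Ndufaf2 lost at -0.14 (edgeR adjusted p = 0.0556) and no other member's call changed. The table holds 1 line per genotype, so no setting here speaks to other mutator or WT lines.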
